A study of Mus musculus with 9 samples.

Results

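The genes described here are 8 genes of mouse chromosome 6 that lie in or beside imprinted domains: Casd1, Sgce, Peg10, Ppp1r9a, Pon3, Pon2 and Asb4, which stand in this order over 832184 bases, and Mest, which lies 25963030 bases beyond Peg10. They were found by position, by setting the coordinates of the deposited loci against the gene coordinates of GRCm38, and not by printed names. All 8 had a locus, of 13461 genes that had one. The study asked whether reprogramming of spermatogonial stem cells (SSC) to induced pluripotent stem cells (iPSC) changes imprinted genes, and whether the cell of origin matters. RNA was sequenced from 9 libraries, 3 each of SSC, of iPSC made from SSC (SSCiPSC) and of iPSC made from fetal male fibroblasts (fiPSC). All cells, SSC included, came from mice with rtTA*M2 at Gt(ROSA)26Sor and with the tetO-driven factors Pou5f1, Sox2, Klf4 and Myc at Col1a1, which doxycycline switches on. SSC were testis cells of early postnatal pups held back on a magnetic column by the surface protein Gfra1, at passage 0, and no pooling of pups or number of pups per library was given in the labels. SSCiPSC and fiPSC were colonies picked and grown as lines, at passages 10 to 11 by the labels and at later ones by the study's methods, and were sorted for the surface marker SSEA1 to limit feeder cells. The labels name LIF and doxycycline in the medium of the iPSC samples, while the study's methods describe a gradual withdrawal of doxycycline. The p-values below measure the spread between the 3 libraries of a group, which the study calls biological samples. Whether each library is a separate line or sort was not stated for the sequenced samples.

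In an imprinted gene only 1 parental copy is transcribed, and which copy that is follows from DNA methylation laid down in the egg or the sperm. Peg10 and Sgce share a methylated promoter region and are transcribed from the paternal copy, whereas several genes around them have been found to use the maternal copy in placenta or other tissues. Mest, also called Peg1, is paternally expressed as well, and its promoter is methylated on the maternal copy. Germ cells of the male line remove the maternal marks, so that sperm carry both promoters without methylation. The values here count RNA of both parental copies together and do not tell one copy from the other.

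Levels are in FPKM, fragments per kilobase of transcript and 1000000 mapped fragments, so that levels of different genes can be set side by side per length. From the smallest steps between FPKM values, the depth of SSC replicates 1, 2 and 3 was estimated at 1.77, 4.62 and 1.38 times 1000000 fragments, and that of the iPSC libraries at 13.2 to 17.6 times 1000000. A single fragment on a kilobase was worth 0.566 FPKM in SSC replicate 1, 0.216 in replicate 2, 0.723 in replicate 3 and no more than 0.0755 in any iPSC library, so low levels in SSC are coarse. The groups carried the markers of their labels in part. The 14 germ line markers had summed levels of 772 FPKM in SSC replicate 1, 929 in replicate 2 and 633 in replicate 3, and the most abundant of them was Dazl, a germ cell RNA-binding protein, at a mean of 210.1 FPKM. In iPSC the same markers summed to between 340.9 and 627.8 FPKM. Of the 14, 8 were lower and 4 higher in SSCiPSC than in SSC, and 2 did not pass in limma. Over all loci, 24.1% were lower and 26.2% higher. Markers of Sertoli cells, led by Clu, summed to 1205, 1216 and 972.8 FPKM, more than the germ line markers in every SSC library. Those of Leydig cells, led by Star, summed to 909.7, 533.1 and 1014 FPKM, more than the germ line markers in replicates 1 and 3 and less in replicate 2. Most of that sum was a short locus of Star without a strand, chr8:25814587-25814743, at 745.3, 401.4 and 759.0 FPKM. The higher Leydig sums in replicates 1 and 3 rest on that locus. Peritubular myoid markers, led by Acta2, summed to 90.2 to 104.4 FPKM in SSC, endothelial markers, led by Pecam1, to 56.8 to 117.1 FPKM, and blood markers, led by Alas2, to 5.51 to 23.9 FPKM. Pluripotency markers summed to between 17.8 and 40.2 FPKM in SSC, where Dppa4 led them, with Nanog and Tdgf1 listed at 0 in all 3 libraries, and to between 1878 and 2851 FPKM in iPSC. In such bulk samples fewer cells of a type and less RNA per cell cannot be told apart.

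The promoter of Mest is shown because the deposited Mest locus begins inside it. The GRCm38.p6 window chr6:30737803-30738052 on the plus strand holds the 250 bases before the start that RefSeq gives for the short form of Mest, 5′ to 3′, with matches to TGCCGC on either strand in capitals:
Mest promoter: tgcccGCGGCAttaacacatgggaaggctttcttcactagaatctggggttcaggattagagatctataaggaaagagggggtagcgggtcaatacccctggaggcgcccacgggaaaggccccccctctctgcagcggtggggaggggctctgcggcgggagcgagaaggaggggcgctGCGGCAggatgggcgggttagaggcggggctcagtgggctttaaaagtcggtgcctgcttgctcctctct
TGCCGC is the hexamer that the zinc finger protein Zfp57 binds when its CG is methylated, which is how methylation is kept at many imprinted promoters. The window held 2 matches, both read as GCGGCA on the printed strand, whose first bases lay at -245 and -70 from the start. Among 32851 RefSeq promoter windows of the same length, 8.68% held the hexamer and 0.874% held it at least as often. The window had 14 CG pairs, against a median of 6 over all windows, of which 29.4% had at least as many, and 62.0% G and C. A match is a description of letters and not of binding.

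Mest encodes a protein of the alpha/beta hydrolase fold and was named for its transcript in mesoderm. With each gene taken at its most abundant locus, it rose most among the members. SSC replicates 1, 2 and 3 had 7.75, 9.69 and 7.89 FPKM, SSCiPSC replicates 30.8, 48.6 and 44.2 FPKM, and fiPSC replicates 30.1, 33.9 and 31.7 FPKM. All 6 iPSC libraries lay above all 3 SSC libraries, and the 2 kinds of iPSC overlapped. Mest was 4.88-fold higher on average in SSCiPSC than in SSC, with a log2 difference on the log2(FPKM + 1) scale of 2.14 (SE 0.21, adjusted p = 0.000435, limma with Benjamini-Hochberg adjustment). In fiPSC it was 3.78-fold higher than in SSC, with a log2 difference of 1.81 (SE 0.13, limma, Benjamini-Hochberg adjusted p = 0.000181). Both comparisons use the same SSC libraries. Between fiPSC and SSCiPSC the log2 difference was -0.33 (SE 0.18) and did not pass the test (limma, Benjamini-Hochberg adjusted p = 0.515). The exact permutation test over 3 against 3 libraries, two-sided, gave p = 0.1 for each comparison with SSC, the smallest value that this design allows.

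The Mest gene spans chr6:30723547-30748465 on the plus strand, and its last 912 bases overlap the end of Copg2, which is read from the minus strand and encodes a subunit of the coat of Golgi vesicles. In the deposited table Mest and Copg2 share 1 interval, chr6:30737975-30896951, with 1 locus on each strand. That interval begins 78 bases before the annotated start of the short Mest transcript and leaves out the upstream first exons of the long forms. As 4 of the annotated long forms run on into the interval, the values do not tell short from long forms. Copg2 had 36.8, 42.1 and 25.4 FPKM in SSC replicates 1, 2 and 3, 60.8, 51.6 and 47.7 in SSCiPSC, and 50.1, 56.1 and 49.3 in fiPSC. Copg2 thus was 1.54-fold higher in SSCiPSC than in SSC on average (log2 difference 0.63, SE 0.21, limma, Benjamini-Hochberg adjusted p = 0.0481), a call lost in 9 of 15 alternatives, over which its adjusted p ran from 0.0183 to 0.672. In fiPSC its log2 difference from SSC was 0.59 (SE 0.20, limma, Benjamini-Hochberg adjusted p = 0.0444), a call lost in 8 of 15 alternatives. The ratio of Mest to Copg2 levels, which does not depend on library scaling, was 0.21 to 0.31 in SSC, 0.51 to 0.94 in SSCiPSC and 0.60 to 0.64 in fiPSC. The ratios of both kinds of iPSC did not overlap those of SSC (exact permutation test, two-sided, p = 0.1 each). SSCiPSC replicate 1 had the lowest ratio and the lowest Mest level of its group.

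**Figure D1:**
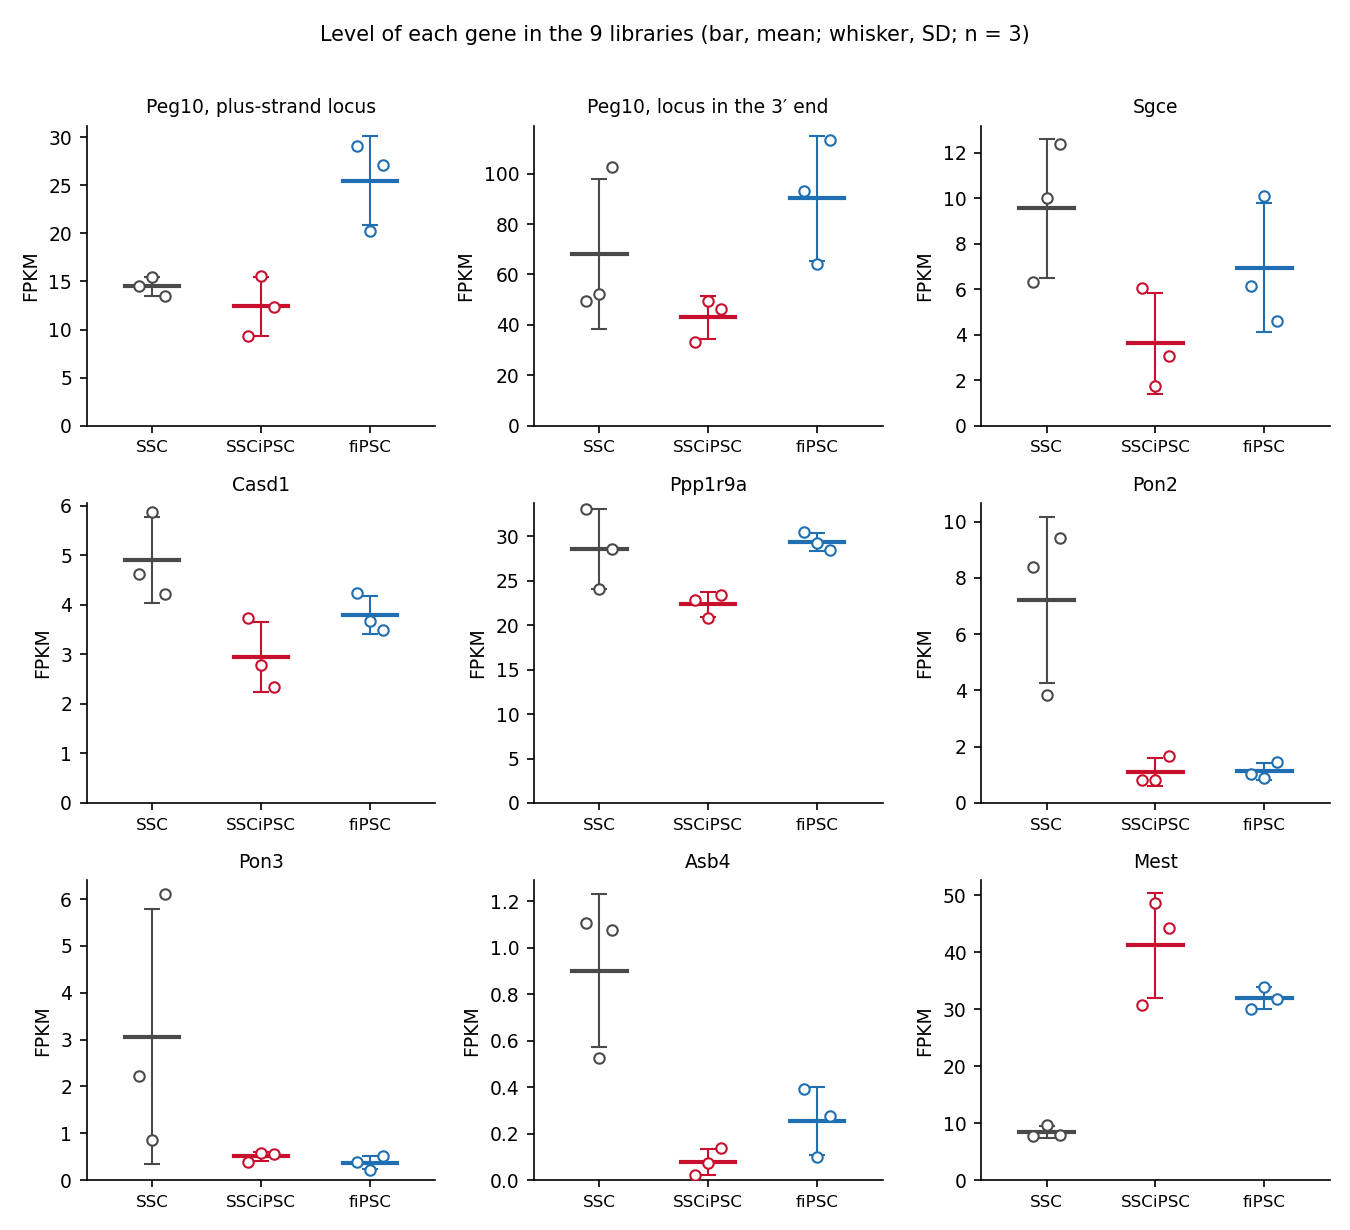
Level in FPKM (vertical axis, linear, from 0) of each of the 8 genes in SSC, SSCiPSC and fiPSC, with Peg10 shown by 2 of its loci. Open circles are the 9 libraries, horizontal bars group means and whiskers the SD over 3 libraries. Mest lies near 8 FPKM in SSC and above 30 FPKM in every iPSC library, Pon2, Pon3 and Asb4 lie lower in every iPSC library than in any SSC library, and both Peg10 loci are higher in every fiPSC library than in any SSCiPSC library.

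Peg10 derives from a Ty3/gypsy retrotransposon, is read in overlapping frames by ribosomal frameshifting, and is needed for the placenta. Its gene spans chr6:4747306-4760517 on the plus strand, and 9 deposited loci were assigned to it. One is a plus-strand locus over chr6:4747318-4756094, an interval that it shares with 1 minus-strand locus and 5 loci without a strand, and the other 3 loci lack a strand and lie toward the 3′ end. Loci of 1 gene share their source and are not replicates of each other. The locus with the highest mean, which represents the gene by the rule used for all genes, has 306 bases (chr6:4759887-4760192) and lies wholly in the last, untranslated part of the last exon. Both it and the plus-strand locus are given.

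The plus-strand Peg10 locus had 14.5, 15.4 and 13.5 FPKM in SSC replicates 1, 2 and 3. In SSCiPSC it had 9.32, 15.5 and 12.3 FPKM. In fiPSC it had 29.1, 20.2 and 27.1 FPKM. The fiPSC libraries therefore lay above all 6 others, and SSC and SSCiPSC overlapped. The locus was 1.76-fold higher in fiPSC than in SSC (log2 difference 0.76, SE 0.16, limma, Benjamini-Hochberg adjusted p = 0.0093), and over 15 alternatives its adjusted p lay between 0.00501 and 0.0451. Between fiPSC and SSCiPSC it was 2.05-fold higher, a log2 difference of 0.99 (SE 0.21), with an unadjusted p of 0.00219 that did not pass after adjustment over all loci (limma, Benjamini-Hochberg adjusted p = 0.209). SSCiPSC and SSC differed by -0.23 (SE 0.21) on the log2 scale, within the spread between libraries (limma, Benjamini-Hochberg adjusted p = 0.405). The order of mean levels was fiPSC, SSC and SSCiPSC, and the last pair did not differ beyond its spread.

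The locus at the 3′ end of Peg10 was more variable in SSC. It had 49.5, 52.4 and 102.6 FPKM in SSC replicates 1, 2 and 3, with replicate 3 far above the others. SSCiPSC had 33.3, 49.5 and 46.3 FPKM and fiPSC 93.2, 64.2 and 113.2 FPKM. The fiPSC and SSCiPSC libraries did not overlap, at a log2 difference of 1.03 (SE 0.24, unadjusted p = 0.00309), again short of the threshold over all loci (limma, Benjamini-Hochberg adjusted p = 0.223). Against SSC, fiPSC differed by 0.44 (SE 0.34, limma, Benjamini-Hochberg adjusted p = 0.319), a difference that turned to -0.20 after quantile normalization and reached 0.77 (adjusted p = 0.0461) without SSC replicate 3. The difference between SSCiPSC and SSC was -0.59 (SE 0.31, limma, Benjamini-Hochberg adjusted p = 0.164), and -1.20 (adjusted p = 0.0225) after quantile normalization. It shrank to -0.26 (adjusted p = 0.35 in limma) without SSC replicate 3 and to -0.43 (adjusted p = 0.302) after median-ratio scaling.

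All 9 Peg10 loci had a higher mean in fiPSC than in SSCiPSC. Of these, 3 without a strand reached 1 FPKM in at most 1 SSCiPSC library and so passed the filter on low values, 1 FPKM in 3 of the 6 libraries, through fiPSC, where they are high, which fixes their direction. The other 6 did not overlap between the groups and had an unadjusted p below 0.05 each, while none of the 9 passed the adjusted threshold in limma. Over all 33948 loci tested in this comparison, 9.41% were higher in fiPSC without overlap, 6.38% were higher at an unadjusted p below 0.05, and 0.0678% passed the adjusted threshold in either direction. Against SSC, all 9 loci had a higher mean in fiPSC, and 5 passed, against 51.8% of all 38007 loci tested (28.0% higher in fiPSC). The 5 were the plus-strand locus and 4 of the loci without a strand in its interval. These 4 reached 1 FPKM in at most 1 SSC library and entered the test through fiPSC, so that their calls add nothing to that of the plus-strand locus. Between SSCiPSC and SSC, 4 of the 9 loci had the higher mean in SSCiPSC, 5 did not overlap and 6 were tested. Over all 36544 loci tested in that comparison, 59.8% did not overlap and 50.3% passed. The 3193-base locus near the 3′ end was lower in SSCiPSC without overlap (log2 difference -0.49, unadjusted p = 0.0353) and did not pass (limma, Benjamini-Hochberg adjusted p = 0.0662). One of the 6 passed, having entered the test through SSCiPSC, a locus without a strand in the shared interval with 0, 2.014 and 0 FPKM in SSC and 2.90, 3.81 and 2.24 FPKM in SSCiPSC (log2 difference 1.45, SE 0.48, limma, Benjamini-Hochberg adjusted p = 0.0436). It was higher in SSCiPSC, whereas the plus-strand locus and the 3 loci toward the 3′ end had lower means there, and its call was lost in 7 of 14 alternatives. The 5 loci without a strand in the shared interval were low in SSC, from 0 to 3.06 FPKM, and from 0.262 to 3.81 FPKM in SSCiPSC. In fiPSC they reached 1.24 to 15.8 FPKM. That 3193-base locus, which holds the end of the coding sequence and much of the untranslated part, had 32.8, 32.8 and 27.4 FPKM in SSC, 17.3, 23.8 and 24.97 in SSCiPSC, and 43.4, 29.6 and 41.8 in fiPSC. As at the plus-strand locus, SSCiPSC replicate 1 and fiPSC replicate 2 were the lowest of their groups. The minus-strand locus of the interval, opposite to Peg10, did not separate the groups, at 11.9 to 12.9 FPKM in SSC, 6.70 to 13.6 in SSCiPSC and 9.82 to 17.2 in fiPSC.

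**Figure D2:**
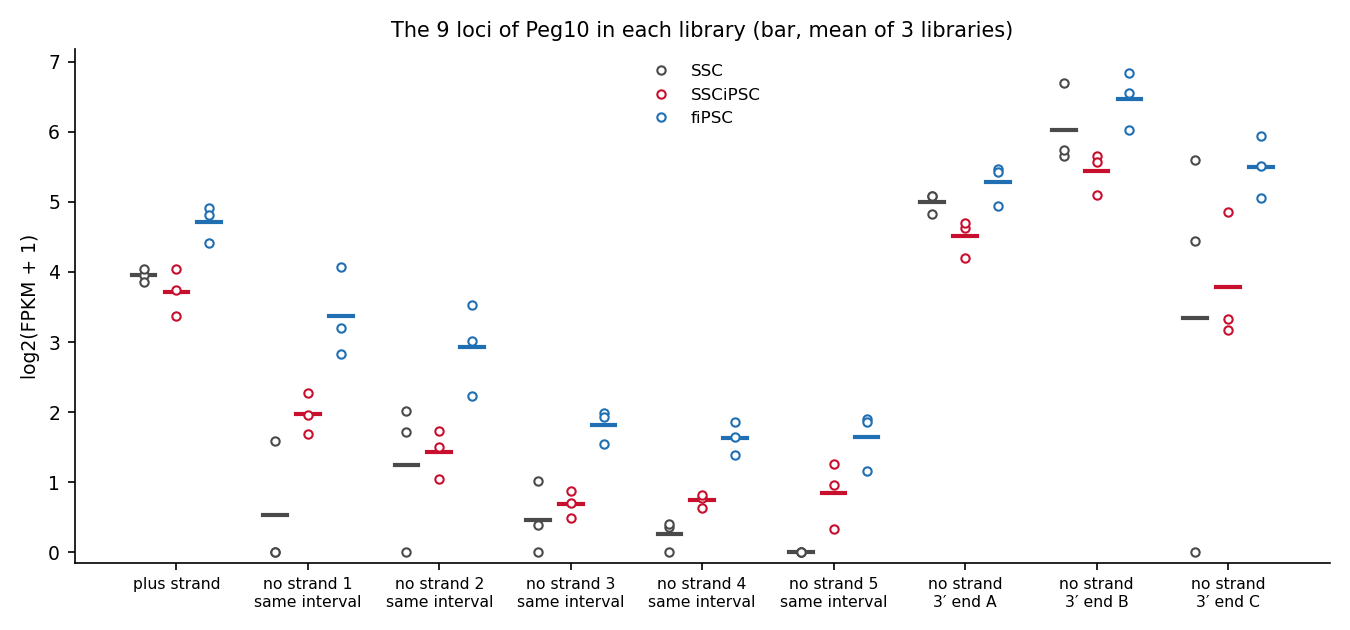
log2(FPKM + 1) of the 9 loci assigned to Peg10 in each of the 9 libraries (circles) with group means (bars). The loci are the plus-strand locus, 5 loci without strand in the same interval, and 3 loci without strand ordered from 5′ to 3′ near the end of the gene, of which the middle one has 306 bases. Every fiPSC mean lies above the SSCiPSC mean of the same locus, and SSC replicates scatter widely at the last 2 loci.

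Sgce encodes epsilon-sarcoglycan, a membrane protein of the dystrophin-associated complex whose mutation causes myoclonus dystonia. It spans chr6:4674350-4747207 on the minus strand, starts 98 bases from Peg10 and is read in the opposite direction. Its levels were 6.32, 9.99 and 12.4 FPKM in SSC replicates 1, 2 and 3, 6.07, 1.73 and 3.06 FPKM in SSCiPSC, and 6.15, 10.1 and 4.61 FPKM in fiPSC. SSCiPSC lay below SSC in every library, though SSCiPSC replicate 1 and SSC replicate 1 were nearly equal, and fiPSC overlapped both groups. Sgce fell by 1.26 on the log2 scale between SSC and SSCiPSC (SE 0.42, limma, Benjamini-Hochberg adjusted p = 0.0437), a mean 2.64-fold lower. That call was lost in 9 of 15 alternatives, among them both other scalings, a pseudocount of 0.1 and 4 of the 6 fits with a library left out, with adjusted p-values from 0.0246 to 0.129 over all alternatives. Between fiPSC and SSCiPSC the log2 difference was 0.83 (SE 0.39, limma, Benjamini-Hochberg adjusted p = 0.463), and between fiPSC and SSC it was -0.42 (SE 0.34, limma, Benjamini-Hochberg adjusted p = 0.338). With a library left out, the former ran from 0.51 to 1.20 and the latter from -0.69 to -0.20.

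Peg10 and Sgce share a promoter region, but their levels did not keep a fixed ratio. The ratio of the plus-strand Peg10 level to the Sgce level ran from 1.09 to 2.29 in SSC, from 1.53 to 8.97 in SSCiPSC and from 2.007 to 5.87 in fiPSC. All groups overlapped (exact permutation test, two-sided, p = 0.3 for SSCiPSC against SSC, p = 0.2 for fiPSC against SSC and p = 1 between the iPSC). Within fiPSC, replicate 2 had the lowest plus-strand Peg10 level and the highest Sgce level. Within SSCiPSC, replicate 1 likewise had the lowest plus-strand Peg10 and the highest Sgce.

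Pon2 and Pon3 encode paraoxonases, enzymes that hydrolyse lactones and protect against lipid oxidation. Pon2 had 8.37, 3.84 and 9.42 FPKM in SSC replicates 1, 2 and 3, 0.820, 0.818 and 1.67 in SSCiPSC and 1.03, 0.890 and 1.45 in fiPSC. Every iPSC library was below every SSC library. Pon2 fell by 1.91 on the log2 scale in SSCiPSC (SE 0.38, limma, Benjamini-Hochberg adjusted p = 0.00615) and by 1.88 in fiPSC (SE 0.35, limma, Benjamini-Hochberg adjusted p = 0.00502), each against the same SSC libraries, and the mean was 6.55-fold and 6.42-fold lower. Pon2 reached 1 FPKM in 1 SSCiPSC and 2 fiPSC libraries and so entered the test through SSC, where it was high. That fixes its direction, and its calls are descriptions. The difference between the iPSC was 0.03 (SE 0.23, limma, Benjamini-Hochberg adjusted p = 0.976) and changed sign with quantile normalization, to -0.13.

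Pon3 did not pass the filter on low values, nor did Asb4, which encodes a substrate receptor of a ubiquitin ligase. Pon3 had 2.23, 0.853 and 6.11 FPKM in SSC replicates 1, 2 and 3, between 0.392 and 0.573 FPKM in SSCiPSC and between 0.224 and 0.511 FPKM in fiPSC. Asb4 had 1.11, 0.524 and 1.08 FPKM in SSC, between 0.0219 and 0.138 FPKM in SSCiPSC and between 0.0983 and 0.391 FPKM in fiPSC. For both genes SSC lay above iPSC without overlap. Fitted without the filter, the log2 difference of Asb4 between SSCiPSC and SSC was -0.80 (limma, Benjamini-Hochberg adjusted p = 0.0182) and that of Pon3 was -1.21 (limma, Benjamini-Hochberg adjusted p = 0.106). The corresponding differences of fiPSC from SSC were -0.59 (adjusted p = 0.0622) for Asb4 and -1.35 (adjusted p = 0.0753) for Pon3. Among SSC, replicate 2 was lowest for Pon2, Pon3 and Asb4. It was also lowest for the summed Leydig, endothelial and blood markers, at 533.1, 56.8 and 5.51 FPKM, for the fibroblast or feeder markers, at 140.1 FPKM against 155.5 in replicate 1 and 378.6 in replicate 3, and for the 8 macrophage markers, of which 7 had a locus, led by Lyz2, at 77.2, 25.6 and 262.4 FPKM in replicates 1, 2 and 3. It was not lowest for the Sertoli, germ line or peritubular myoid markers. In the iPSC libraries the Sertoli markers summed to 19.1 to 28.6 FPKM and the Leydig markers to 11.3 to 33.5 FPKM. Peritubular myoid markers summed to 16.7 to 21.3 FPKM there and macrophage markers to 11.0 to 26.1 FPKM. These sums were thus lower in iPSC on average, as were Pon2, Pon3, Asb4 and Sgce. The endothelial sum, at 83.4 to 127.1 FPKM in iPSC, overlapped that of SSC. In iPSC most of it was Pecam1, at a mean of 100.9 FPKM in SSCiPSC and 92.9 FPKM in fiPSC. Of the 6 endothelial markers, 4 were lower in SSCiPSC than in SSC, 1 was higher and 1 did not pass. Over all loci, 24.1% were lower and 26.2% higher. Markers under 1 FPKM in iPSC entered the test through SSC, so these counts are descriptions. The part of such cells in the levels of these genes was not tested.

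Casd1 and Ppp1r9a flank the Peg10 and Sgce pair and were expressed in all groups. Casd1, which acetylates sialic acids in the Golgi, had 4.61, 5.87 and 4.22 FPKM in SSC replicates 1, 2 and 3, 3.72, 2.78 and 2.35 in SSCiPSC and 4.23, 3.67 and 3.48 in fiPSC. SSCiPSC lay below SSC without overlap, at a log2 difference of -0.58 (SE 0.26, limma, Benjamini-Hochberg adjusted p = 0.105), which passed the threshold only with all 9 libraries in the fit (adjusted p = 0.0424). Its differences of 0.29 between fiPSC and SSCiPSC (SE 0.20, limma, Benjamini-Hochberg adjusted p = 0.608) and of -0.29 between fiPSC and SSC (SE 0.21, adjusted p = 0.282) did not pass.

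Ppp1r9a, which encodes neurabin, a scaffold that binds actin and protein phosphatase, had a higher mean FPKM in SSC than every other member except Peg10, of which the 306-base and the 3193-base loci were higher. Of its 3 loci the most abundant represents it, and that locus shares its interval with a locus without a strand. Levels there were 33.1, 24.1 and 28.6 FPKM in SSC, 22.9, 20.8 and 23.4 in SSCiPSC, and 30.5, 29.2 and 28.4 in fiPSC. SSCiPSC lay below both other groups, by 0.33 on the log2 scale against SSC (SE 0.16, limma, Benjamini-Hochberg adjusted p = 0.132) and with a difference of 0.38 between fiPSC and SSCiPSC (SE 0.11, unadjusted p = 0.00899, limma, Benjamini-Hochberg adjusted p = 0.288). The difference of 0.05 between fiPSC and SSC (SE 0.14, limma, Benjamini-Hochberg adjusted p = 0.796) turned to -0.24 after quantile normalization.

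Counted together, 6 of the 8 genes passed the filter, with Peg10 taken at its 3′ end. Pon2 passed it through SSC, where it was high, so the counts over these genes are descriptions. Between SSCiPSC and SSC, Mest rose, Sgce and Pon2 fell and 3 did not pass the test, while 50.3% of all 36544 loci tested passed it (26.2% higher and 24.1% lower). The median log2 difference of the 6 was -0.59, against 0.11 over all loci, and the 6 did not overlap between the groups, as did 59.8% of all loci. Peg10 is among them by a margin under 0.1 FPKM at its 3′ end, and its plus-strand locus overlapped. Between fiPSC and SSC, Mest rose and Pon2 fell and 4 did not pass, against 51.8% of 38007 loci that passed (28.0% higher and 23.7% lower). Of the 6 genes, 2 did not overlap in that comparison, against 61.6% of all loci. The medians were -0.12 and 0.17. Between fiPSC and SSCiPSC none of the 6 passed in limma and 2, Peg10 and Ppp1r9a, had an unadjusted p below 0.05, as did 11.7% of all loci. Their median difference was 0.34, against 0.01 over all loci. Median-ratio scaling moved the median over all loci from 0.11 to 0.23 for SSCiPSC against SSC and from 0.17 to 0.30 for fiPSC against SSC, and quantile normalization moved the latter to 0.05, so differences of this size rest on the scaling.

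**Figure D3:**
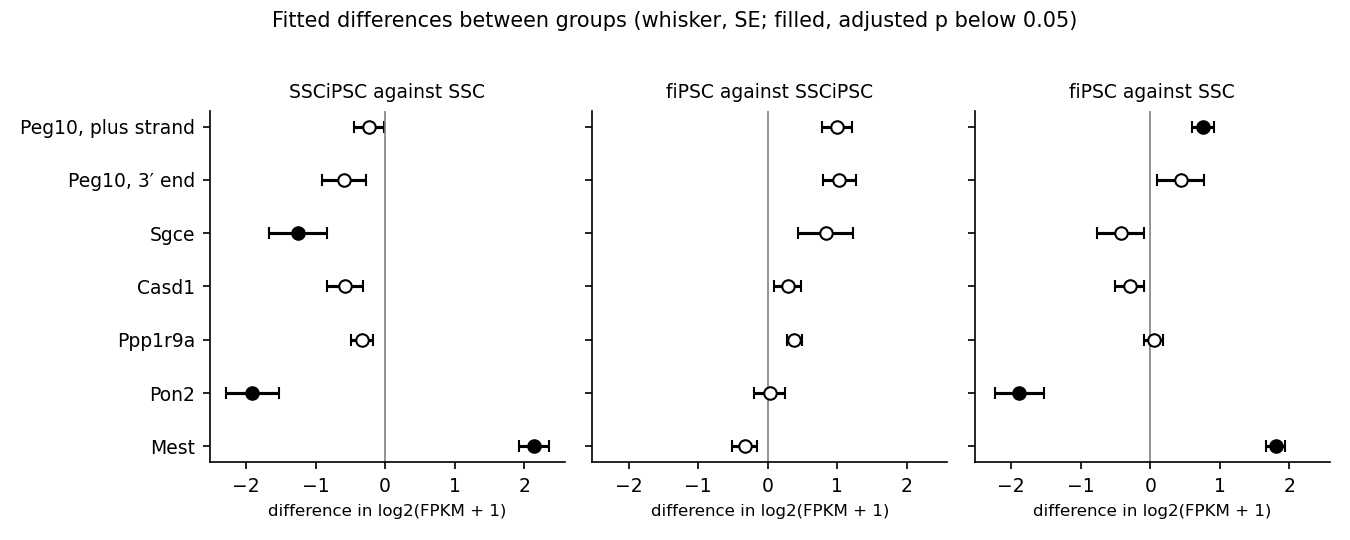
Difference between groups in log2(FPKM + 1) (horizontal axis) for 6 genes, with Peg10 given by its plus-strand and its 3′-end locus. Points are limma estimates, whiskers their SE, and filled points passed an adjusted p of 0.05. Mest is to the right and Pon2 to the left of 0 in both comparisons with SSC, and every point in the comparison of fiPSC with SSCiPSC is open.

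Genes around the imprinted pair were set beside the members. Over all loci tested, 50.3% passed between SSCiPSC and SSC, 26.2% higher and 24.1% lower. Of 16 neighbours of the Peg10 domain, 12 had a locus and 8 were tested, of which 3 were higher in SSCiPSC than in SSC, 2 lower and 3 did not pass. Slc25a13, a mitochondrial aspartate and glutamate carrier, rose most, from 2.93 to 5.66 FPKM in SSC to 82.1 to 85.9 FPKM in SSCiPSC and 68.1 to 75.9 FPKM in fiPSC. Vps50, of an endosomal recycling complex, rose 2.18-fold in SSCiPSC (log2 difference 1.06, SE 0.16, limma, Benjamini-Hochberg adjusted p = 0.00207). Bet1, a Golgi SNARE, rose 1.68-fold (log2 difference 0.68, SE 0.19, adjusted p = 0.0236 in limma), a call lost in 4 fits with a library left out. Dync1i1, a dynein subunit, had 19.8, 49.2 and 88.5 FPKM in SSC, was listed at 0 in 5 of the 6 iPSC libraries and had 1.001 FPKM in SSCiPSC replicate 3. Dync1i1 thus entered the test through SSC, where it was high, which fixes its direction.

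Col1a2, which encodes a chain of type I collagen and lies before Casd1, had 33.2, 31.8 and 71.6 FPKM in SSC. It had 5.86, 4.77 and 9.14 FPKM in SSCiPSC and 5.82, 1.63 and 8.36 in fiPSC. SSC replicate 3 was thus the highest for Col1a2 as it was for the 3′ end of Peg10, and fiPSC replicate 2 was the lowest fiPSC library for Col1a2 and for the plus-strand Peg10. The 11 fibroblast or feeder markers, of which Col1a2 is one and Col3a1 the most abundant in SSC, summed to 155.5, 140.1 and 378.6 FPKM in SSC, 152.0, 194.1 and 243.0 in SSCiPSC and 186.0, 155.7 and 187.7 in fiPSC. In iPSC most of that sum was Fn1, which encodes fibronectin, at a mean of 161.1 FPKM in SSCiPSC and 143.2 FPKM in fiPSC. None of these markers was at 0 in all 3 SSC libraries. The part of fibroblasts or feeder cells in the Peg10 levels was not tested. Of the remaining neighbours, Sem1, a small proteasome subunit, was the most abundant at 223 to 348 FPKM over the 9 libraries and did not pass, and neither did Pdk4, a kinase of pyruvate dehydrogenase, or Sdhaf3, an assembly factor of succinate dehydrogenase. The direction of Sem1 rested on the scaling. Its log2 difference of 0.36 between SSCiPSC and SSC (limma, Benjamini-Hochberg adjusted p = 0.0748) turned to -0.81 (adjusted p = 0.00224) after quantile normalization and passed as higher in 3 other alternatives, and that of 0.14 between fiPSC and SSC turned to -0.94 (adjusted p = 0.000798). Sdhaf3, at a log2 difference of 1.06 between SSCiPSC and SSC (limma, Benjamini-Hochberg adjusted p = 0.0625), passed in 4 alternatives, and the small difference of Pdk4, -0.08, changed sign in 3. Calcr, Tfpi2, Gng11 and Dlx5 were at or below 2.14 FPKM in every library and were not tested. In fiPSC against SSC the same counts were found, 3 higher, 2 lower and 3 not passed, while 51.8% of all loci passed. None of 7 tested passed between fiPSC and SSCiPSC, and none had an unadjusted p below 0.05 in limma, while 11.7% of all loci did.

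Around Mest, 10 of 15 neighbours had a locus and 9 were tested between SSCiPSC and SSC. Copg2, Tmem209, Zc3hc1 and Nrf1 were higher, Ube2h and Podxl lower, and 3 did not pass, while 50.3% of all loci passed. Tmem209, a protein of the nuclear envelope, had 9.70 to 15.04 FPKM in SSC, 47.7 to 58.3 in SSCiPSC and 45.9 to 62.1 in fiPSC, a log2 difference of 2.001 in SSCiPSC (SE 0.19, limma, Benjamini-Hochberg adjusted p = 0.000387) that was close in size to that of Mest. Zc3hc1, a regulator of mitotic entry, rose by 1.52 (SE 0.13) and Nrf1, a transcription factor of mitochondrial genes, by 0.88 (SE 0.14). Ube2h, a ubiquitin-conjugating enzyme, had 31.1 to 34.0 FPKM in SSC and 6.36 to 7.35 FPKM in iPSC. Podxl, a sialomucin of the cell surface, fell by 1.11 in SSCiPSC (SE 0.26, limma, Benjamini-Hochberg adjusted p = 0.0115). In fiPSC, 4 of 9 tested neighbours were higher than in SSC, 2 were lower and 3 did not pass, while 51.8% of all loci passed. The lower ones included Mkln1, which belongs to a ubiquitin ligase complex, at 32.8 to 38.5 FPKM in SSC and 21.9 to 29.8 in fiPSC. Its call was lost in 7 alternatives. Klhdc10, an adaptor of a ubiquitin ligase, and Cep41, of the centrosome, did not pass in any comparison, though Cep41 passed between fiPSC and SSC in 4 alternatives, and Klf14 was at or below 0.102 FPKM. None of 9 neighbours passed between fiPSC and SSCiPSC in limma, and 2 had an unadjusted p below 0.05, as did 11.7% of all loci.

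**Figure D4:**
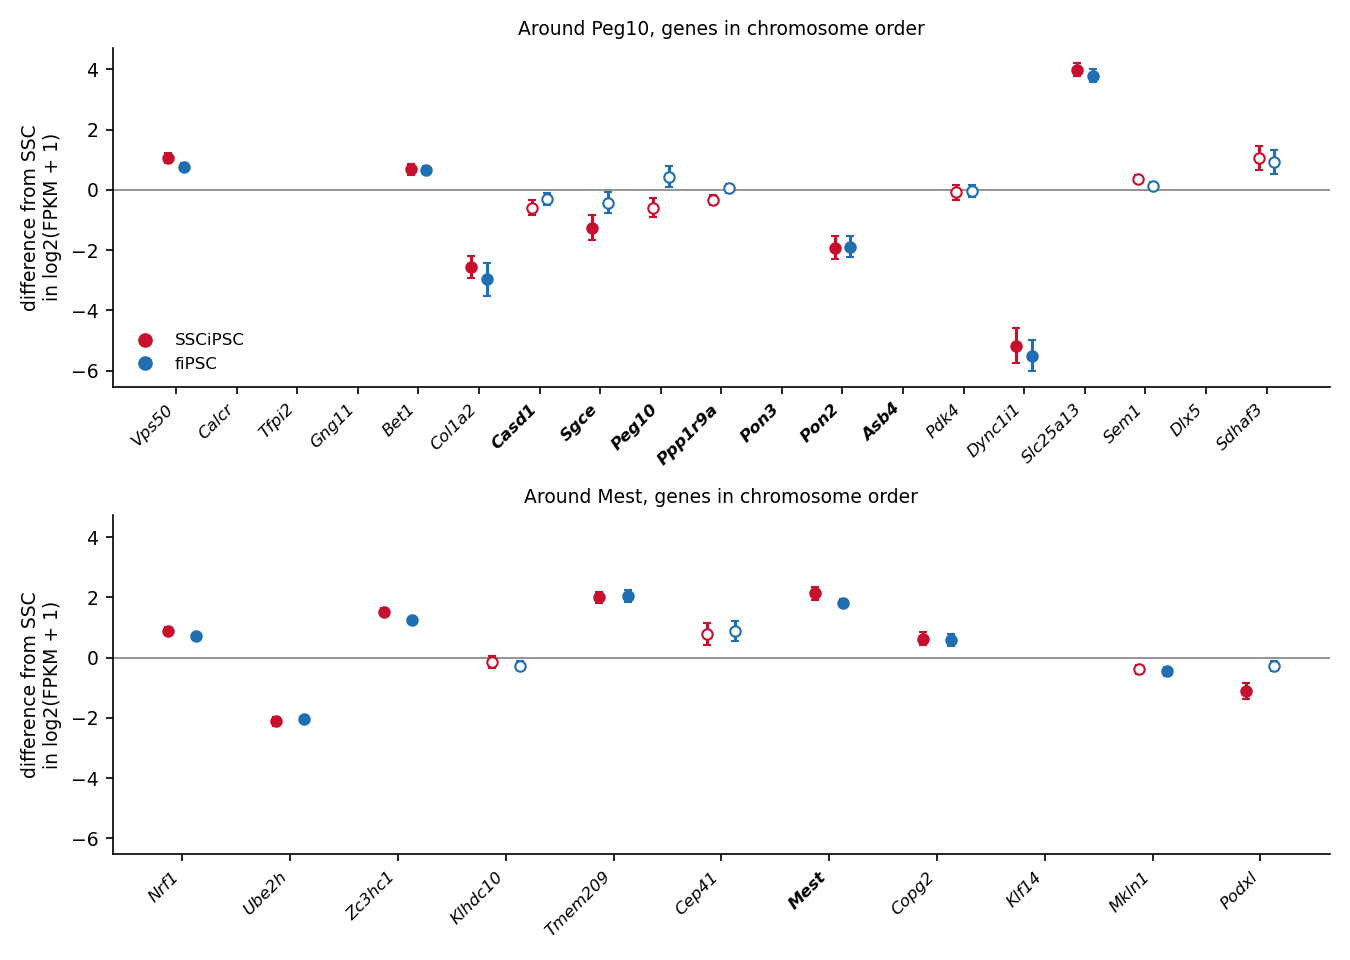
Difference from SSC in log2(FPKM + 1) for genes around Peg10 (top) and around Mest (bottom), in the order in which they lie on the chromosome. Red points are SSCiPSC and blue points fiPSC, whiskers are SE, filled points passed an adjusted p of 0.05 in limma, and genes with no point did not pass the filter. Members are in bold and Peg10 is shown by its 3′-end locus. Both regions hold genes that rose and genes that fell, and the values run from Dync1i1 below -5 to Slc25a13 near 4.

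Other imprinted genes and relatives of the members moved both ways, as did loci in general. Of all loci tested, 26.2% were higher and 24.1% lower in SSCiPSC than in SSC. On the same chromosome Herc3, whose intron holds the imprinted Nap1l5, had 8.49, 12.2 and 9.86 FPKM in SSC, 3.96, 4.73 and 5.32 in SSCiPSC and 4.41, 5.75 and 5.98 in fiPSC (log2 difference -0.97, SE 0.22, for SSCiPSC against SSC, limma, Benjamini-Hochberg adjusted p = 0.0106). Of 12 tested paternally expressed imprinted genes elsewhere, which like Peg10, Sgce and Mest are read from the copy of the father, 5 were higher in SSCiPSC than in SSC, 4 lower and 3 did not pass. Slc38a4, an amino acid transporter, went from 2.53 to 2.90 FPKM in SSC to 83.3 to 96.7 FPKM in SSCiPSC, and Impact, a translational regulator, from 4.46 to 7.78 to 60.8 to 78.2 FPKM. Dlk1, a membrane protein of the Notch ligand family, went from 13.2 to 43.8 FPKM in SSC to 0.207 to 0.379 in SSCiPSC, and Ndn, which encodes necdin, from 11.5 to 19.8 to 0.782 to 1.18 FPKM. Of 18 tested maternally expressed genes, 4 were higher, 9 lower and 5 did not pass. Gatm, of creatine synthesis, fell by 6.48 on the log2 scale and Axl, a receptor tyrosine kinase, fell by 5.88, whereas Ddc, an amino acid decarboxylase, rose by 2.92 and Mirg, a noncoding RNA of the Dlk1 region, by 2.52. Dlk1 and Axl stayed under 1 FPKM in every SSCiPSC library, and Ndn, Gatm and Ddc did so in part of the libraries of their lower group. These genes entered the test through the group where they were high, which fixes their direction.

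Between fiPSC and SSC, 6 of 10 tested paternally expressed genes were higher and 4 lower, and of 20 maternally expressed genes 6 were higher, 9 lower and 5 did not pass. Of all loci tested there, 28.0% were higher and 23.7% lower. Between fiPSC and SSCiPSC none of the 10 and none of 17 passed in limma, with 3 and 2 at an unadjusted p below 0.05, as were 11.7% of all loci. Among genes that, like Peg10, derive from Ty3/gypsy gag sequences, 4 of 10 had a locus and 2 were tested in SSCiPSC against SSC. Rtl1, a placental gene and neighbour of Dlk1, had 0.994, 0.543 and 1.27 FPKM in SSC and 6.07 to 9.11 FPKM in all iPSC libraries (log2 difference 2.105 in SSCiPSC, limma, Benjamini-Hochberg adjusted p = 0.00127), and Rtl6 was at 1.14 to 1.99 FPKM in all 9 libraries and did not pass. The locus of Rtl1 has no strand, so RNA of Rtl1 and RNA read from the opposite strand cannot be told apart there. That limit holds also where Rtl1 is counted among the paternally expressed genes. Rtl1 entered the test through iPSC, where it was high, which fixes its direction.

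Of 12 other genes of the sarcoglycan and dystrophin complex, in which the Sgce product takes part, 9 had a locus and 8 were tested in SSCiPSC against SSC, with 2 higher, 3 lower and 3 not passed. Over all loci tested, 50.3% passed. Dtna, which encodes dystrobrevin alpha, went from 29.5 to 44.2 FPKM in SSC to 2.59 to 5.15 in SSCiPSC, and Dag1, which encodes dystroglycan, from 74.4 to 85.6 to 28.8 to 40.1 FPKM. Utrn, which encodes utrophin, a relative of dystrophin, went from 14.2 to 17.3 to 40.8 to 56.6 FPKM. Sgcz, a sarcoglycan, was represented by a single short locus without strand, chr8:37788124-37788267, which need not stand for the whole gene. That locus was listed at 0 in 2 SSC libraries and at 22.2 FPKM in the other, and at 49.1 to 94.2 FPKM in iPSC. Sgcz thus entered the test through iPSC, which fixes its direction. Its call in SSCiPSC was lost in 5 of the 6 fits with a library left out, where its adjusted p in limma reached 0.087. Between fiPSC and SSC the counts were again 2, 3 and 3, and between fiPSC and SSCiPSC none of 9 passed in limma, with 3 at an unadjusted p below 0.05. Over all loci, 51.8% passed in the former comparison and 11.7% had such an unadjusted p in the latter.

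The genes whose log2(FPKM + 1) was most like that of each paternally expressed member over the 9 libraries were read out among 11725 genes, as a description in which the iPSC and SSC libraries form separate clusters. Those nearest to Mest were Lig1 (Pearson r 0.997), Thumpd1 (0.996) and Dlgap3 (0.996). Those nearest to the 3′ end of Peg10 were Pex6 (0.895), Igdcc4 (0.894) and Cep126 (0.893), and those nearest to Sgce were 4931428F04Rik (0.942), Dsn1 (0.940) and Pgpep1 (0.927). Among the members themselves r was 0.29 between Peg10 and Sgce, 0.75 between Sgce and Casd1, and -0.93 between Mest and Pon2.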

How the data were processed

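RNA-seq data of 9 libraries, 3 per group, were used. Per the labels, ribosomal RNA was depleted, whereas a stranded mRNA kit is also named. The submitters' processing notes list Trimmomatic 0.32, TopHat2 2.0.9, Bowtie2 2.1.0, Cufflinks 2.2.1 and Cuffdiff. The authors deposited 1 FPKM value per locus and library for 54914 loci, under a header that reads RPKM, and 1 locus with a blank value was left out. The notes list mm9, but 92.8% of 16363 stranded loci overlapped a same-strand GRCm38 gene (GENCODE M21), against 38.3% and 37.9% after shifts of 1000000 bp, so GRCm38 was used. Strand was read from the order of blocks in the table. A locus was assigned to a gene that held at least 50% of it or, for a stranded locus, when it covered 90% of a coding transcript on its strand, as at Mest. A gene was represented by the locus with the highest mean. Of all loci, 23605 share an interval with another. Depth was estimated from the steps between low FPKM values.

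For each pair of groups, log2(FPKM + 1) was fitted in limma 3.58.1 (R 4.3.3, two-sided, lmFit and trended eBayes). A locus was tested if 3 or more of the 6 libraries reached 1 FPKM, p-values were adjusted by Benjamini-Hochberg over these loci, and 0.05 was the threshold. A locus under 1 FPKM in one group entered through the other and had to differ, so counts are descriptions. This scale understates changes of low genes. Single values were compared with exact permutation tests. The fit was tested on simulated data. Alternatives were quantile normalization, a pseudocount of 0.1, no filter or one at a mean of 5 FPKM, scaling by median ratios, eBayes with no trend, all 9 libraries, a replicate block, leaving out each library, and the sum of all loci of a member on its own strand in place of the single locus. The members, gene lists and tests were chosen with earlier results of these data known. Named are all members, all neighbours with a locus, up to 2 rising and 2 falling genes of each other list, the 3 genes most like Peg10, Sgce and Mest, and the most abundant gene of marker lists, and 1 gene is not reported here. A summary file with no values per library was not used. Promoter windows came from RefSeq (GRCm38.p6), and 6 of the 8 genes matched.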

Additional observations from a re-analysis of the deposited data

How the results depend on the processing

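The direction and call of Mest against SSC and the lack of calls between fiPSC and SSCiPSC for all 6 tested genes held in every alternative run, although the sign of Pon2 between the iPSC did not. The calls of Pon2 against SSC also held, but it entered the test through SSC, where it was high, which fixes its direction. The number of loci passing for SSCiPSC against SSC was 18396, and 10070 with a mean of at least 5 FPKM, where 17141 loci were tested. For fiPSC against SSC it was 19680, and 10528 with that filter, where 17246 were tested. Between fiPSC and SSCiPSC it was 23, with 10 under that filter, 11 with all 9 libraries and 6 to 20 with a library left out. Sgce between SSCiPSC and SSC had a log2 difference of -1.50 (adjusted p = 0.0564) with a pseudocount of 0.1, -1.26 (0.0526) without the filter, -1.17 (0.0561) after quantile normalization, -1.12 (0.0609) after median-ratio scaling and -1.62 to -0.93 with a library left out, and the call was lost without SSC replicate 2 or 3 or SSCiPSC replicate 2 or 3. Quantile normalization gave -1.20 for the 3′ end of Peg10 and -0.65 (0.0274) for Ppp1r9a in SSCiPSC against SSC. With all 9 libraries Casd1 passed at -0.58. For fiPSC against SSC, the 3′ end of Peg10 was at -0.20 after quantile normalization, 0.26 to 0.77 with a library left out and 0.76 when the plus-strand locus took its place, and Ppp1r9a at -0.24 after quantile normalization and -0.0656 to 0.157 with a library left out. Pon2 between fiPSC and SSCiPSC was at -0.13 after quantile normalization and -0.0773 to 0.214 with a library left out. Casd1 and Pon2 have no value at a mean of at least 5 FPKM. The causes were not tested.

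The replicate numbers do not pair the samples by design. Deviations of same-numbered libraries correlated between -0.24 and 0.03, and not every library correlated best with its own number. With the replicate block 6 loci passed between fiPSC and SSCiPSC, 16926 between SSCiPSC and SSC and 17546 between fiPSC and SSC, and Sgce was at -1.26 (adjusted p = 0.0853).

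The SSC libraries, at 1.38 to 4.62 times 1000000 fragments, limit what can be seen of low genes such as Pon3 and Asb4. FPKM of loci that share an interval or lack a strand depend on how fragments were divided between them, which the deposited values do not show.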
